A study of Mus musculus with 6 samples.

Results

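The monocyte and macrophage genes *Emr1*, *Cd68*, *Lyz2*, *Itgam*, *Cx3cr1*, *Mrc1*, *Ly86* and *Cd14* were followed in hematopoietic stem cells with and without the lymphotoxin-β receptor gene *Ltbr*. The 8 genes were chosen from measured values of these same samples, that is, with the difference between the genotypes already known. Their differences are therefore given as a description without p-values, and nothing is read from whether they were called. They are 8 of the 26216 gene names with a value, and all 8 of the 8 lay among the 13108 names that were tested, the upper 50% by mean signal. RNA came from bone marrow LT/ST-HSCs (long-term and short-term HSCs), sorted as lineage-negative cells without Annexin-V or CD48 that carried sca1, c-kit and CD150, and taken from mixed chimeras at week 6, in 3 samples of Ltbr-/- (CD45.2) cells and 3 of Ly5.1 (CD45.1) cells. Both kinds of LSKs (Lin-sca1+c-kit+ cells) had been given together to lethally irradiated Ly5.1/Ly5.2 mice, and cells of 6 chimeras were pooled into the 3 biological replicates, so 1 sample is not 1 mouse. The Ltbr-/- donors, homozygous for an intragenic deletion, were 10 to 13 weeks old and the Ly5.1 donors, which carry *Ltbr*, 7 to 13 weeks, and the donor strain cannot be told apart from the *Ltbr* genotype.

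Monocytes and macrophages descend from HSCs through committed myeloid progenitors, and their surface and lysosomal proteins serve to tell them from other leukocytes. *Emr1* (*Adgre1*) encodes an adhesion G protein-coupled receptor that is the standard macrophage marker of the mouse, and *Cd68* encodes a glycoprotein of late endosomes and lysosomes. *Lyz2* (lysozyme M) and *Itgam* (CD11b) are shared with neutrophils, and long-term HSCs are usually described as having little of these products. None of the lineage antibodies named in the methods of the study binds the product of one of the 8 genes.

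The 8 markers did not move together. *Emr1* was 1.78-fold higher in Ltbr-/- than in Ly5.1 cells and *Cd68* 1.22-fold higher. The Ly5.1 level of *Lyz2* was 1.33 times and that of *Itgam* 1.23 times the Ltbr-/- level (all as ratios of geometric means). *Cx3cr1*, *Mrc1*, *Ly86* and *Cd14* had overlapping groups. Since these are bulk samples, fewer cells of a type and less RNA per cell cannot be told apart for any of these values.

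The values used were the signals deposited by the authors, which were taken, from their values and the methods of the study, to be 2 to the power of a regularized log value. Such a transformation draws low values towards the mean of the gene, so differences and spreads of low genes would be understated. The median log2 signal of the tested names was 8.46 to 8.47 in the 6 samples, while the summed signal was 11689052 to 11983000 in Ly5.1 and 12974106 to 13281050 in Ltbr-/- samples. The targeted gene *Ltbr* followed the labels, at 23.1 to 26.4 in Ltbr-/- and 522 to 564 in Ly5.1 samples. All 13 listed HSC genes were among the tested names. *Cd48*, against which the cells were sorted, was at 20.1 to 28.9.

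*Lyz2* encodes the lysozyme of myeloid cells and has a close copy, *Lyz1*, the lysozyme best known from Paneth cells, on the same strand beside it. *Lyz2* lies at chr10:117277541-117282272 and *Lyz1* at chr10:117287795-117292868 (GRCm38.p6, minus strand). The 100 bases before the start of each gene are shown because the pair is nearly identical there, at chr10:117282273-117282372 for *Lyz2* and chr10:117292869-117292968 for *Lyz1*, 5′ to 3′ on the minus strand as given by RefSeq for GRCm38.p6. Capitals mark the 8 of 100 bases that differ:
Lyz2: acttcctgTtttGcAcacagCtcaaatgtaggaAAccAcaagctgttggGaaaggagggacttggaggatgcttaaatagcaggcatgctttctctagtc
Lyz1: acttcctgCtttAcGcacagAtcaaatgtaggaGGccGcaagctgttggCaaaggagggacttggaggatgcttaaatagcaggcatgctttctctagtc

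The copies are also alike in their coding sequence, which decides whether a read can be given to one of them. Over 444 coding bases they differ at 22 and are 95.0% identical, and the longest identical run is 118 bases, longer than a read of 76 bases. Of 1241 windows of 76 bases in the *Lyz2* transcript, 72 (5.8%) occur in *Lyz1* too, so most of the transcript separates them. Coding bases 37 to 156 are shown (GENCODE M21 transcripts) because 14 of the differences fall there, in capitals:
Lyz2: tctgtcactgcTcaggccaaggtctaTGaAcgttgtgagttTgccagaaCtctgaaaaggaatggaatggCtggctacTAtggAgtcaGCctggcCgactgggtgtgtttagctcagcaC
Lyz1: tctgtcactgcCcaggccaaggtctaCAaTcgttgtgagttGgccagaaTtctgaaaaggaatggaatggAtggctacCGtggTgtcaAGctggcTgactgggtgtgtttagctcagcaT

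*Cd68* and *Itgam* are the other markers with a RefSeq promoter whose groups did not overlap, and their 250 bases before the start are shown with the letters GAGGAA (on either strand, TTCCTC on the other), a longer form of the GGAA core of ETS family factors, in capitals. *Cd68* is at chr11:69664213-69666170 on the minus strand, with its promoter window at chr11:69666171-69666420, and *Itgam* at chr7:128062640-128118491 on the plus strand, with its window at chr7:128062390-128062639.
Cd68: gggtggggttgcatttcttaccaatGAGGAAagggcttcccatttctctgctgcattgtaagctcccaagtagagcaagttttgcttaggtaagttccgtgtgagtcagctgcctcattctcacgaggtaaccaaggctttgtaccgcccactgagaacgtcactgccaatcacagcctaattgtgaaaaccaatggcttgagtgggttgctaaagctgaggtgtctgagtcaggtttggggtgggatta
Itgam: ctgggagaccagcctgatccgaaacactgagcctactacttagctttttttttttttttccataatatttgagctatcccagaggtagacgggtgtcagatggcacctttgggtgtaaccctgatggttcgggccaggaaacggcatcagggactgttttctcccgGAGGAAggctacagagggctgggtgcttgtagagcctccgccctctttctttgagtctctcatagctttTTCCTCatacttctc

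The letters began 225 bases before the start of *Cd68* and 84 and 15 bases before that of *Itgam*. *Mrc1* held them 3 times, at 180, 167 and 35 bases, while *Lyz2*, *Cx3cr1* and *Ly86* had no match to these 6 letters in this window, which says nothing of the shorter core. Of 32817 RefSeq promoters of this length, 23.3% held GAGGAA on either strand. TTGCNNAA, the letters of a C/EBP type of site, was found in 9.6% of them. Of the 6 markers whose promoter was examined it was found in *Cd68*, 43 bases before the start and apart from the GAGGAA match. These matches were not set against the differences.

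*Emr1* lies at chr17:57358581-57483529, and none of its windows of 76 bases was found in another transcript. Its signal was 690.3, 736 and 658 in the Ly5.1 samples and 1120, 1207 and 1397 in the Ltbr-/- samples. Every Ltbr-/- value was above every Ly5.1 value, and the gap between the groups exceeded the range within either. The means were 695 ± 39.2 and 1241 ± 141 (SD, n = 3 each), a log2 difference of 0.83 with a standard error of 0.10 from the pooled spread of the replicates. Leaving out any 1 sample gave log2 differences of 0.74 to 0.90. *Emr1* ranked 129 of 13108 tested names by log2 difference, and by mean signal it was at percentile 75.9.

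*Cd68*, whose product sits in lysosomal membranes of phagocytes, differed less. Its signal was 594, 748 and 656 in Ly5.1 and 810.4, 811 and 799 in Ltbr-/- samples. The groups did not overlap, but Ly5.1 replicate 2 came near the Ltbr-/- samples. The means were 666 ± 77.5 and 807 ± 6.80 (SD, n = 3 each), a log2 difference of 0.28 (SE 0.10), with 0.20 to 0.37 when any 1 sample was left out.

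*Lyz2* had the highest signal of the 8 markers and the lowest rank by difference, 13072 of 13108. Its signal was 4490, 4821 and 5035 in Ly5.1 and 3625, 3339 and 3798 in Ltbr-/- samples. The groups were separate, with all Ltbr-/- values below the lowest Ly5.1 value. The means were 4782 ± 275 and 3587 ± 232 (SD, n = 3 each), a log2 difference of -0.42 (SE 0.07). After quantile normalization the log2 difference was -0.55.

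*Itgam* encodes CD11b, which pairs with the β2 integrin chain CD18 into complement receptor 3. Its signal was 937, 939.9 and 907 in Ly5.1 and 848, 659 and 767 in Ltbr-/- samples. The Ly5.1 samples were close to each other and all above the more scattered Ltbr-/- samples. The means were 928 ± 18.1 and 758 ± 94.7 (SD, n = 3 each), a log2 difference of -0.30 (SE 0.11), which was -0.38 to -0.20 without any 1 sample. In the GENCODE M21 annotation 71.7% of the *Itgam* windows of 76 bases also occur in Gm49368, a gene model on the same strand that was not analysed here, so how its reads were assigned is uncertain.

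The remaining markers were low and did not separate the genotypes. *Cx3cr1*, the fractalkine receptor of monocytes and tissue macrophages, was at 63.4, 60.5 and 61.9 in Ly5.1 and 65.2, 65.9 and 61.7 in Ltbr-/- samples, with a log2 difference of 0.05 (SE 0.04). *Mrc1*, the mannose receptor CD206 of tissue macrophages, was at 44.5, 47.0 and 42.6 in Ly5.1 and 42.9, 40.2 and 40.5 in Ltbr-/- samples, with a log2 difference of -0.12 (SE 0.05). For both, 1 Ltbr-/- sample lay within the Ly5.1 range.

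*Ly86* encodes MD-1, the partner of the Toll-like receptor relative CD180. It was at 115, 103 and 131 in Ly5.1 and 106, 109 and 124 in Ltbr-/- samples, a log2 difference of -0.04 (SE 0.12), and its sign turned when single samples were left out (-0.12 to 0.05). *Cd14* encodes the co-receptor that hands lipopolysaccharide to TLR4. It was at 17.9, 18.8 and 18.1 in Ly5.1 and 17.8, 18.9 and 17.6 in Ltbr-/- samples, at percentile 2.55 of the tested names by mean signal, and its log2 difference of -0.01 (SE 0.04) also changed sign without single samples. At such levels a regularized log would allow little spread, and a difference in *Cd14* may not have been detectable.

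**Figure D1:**
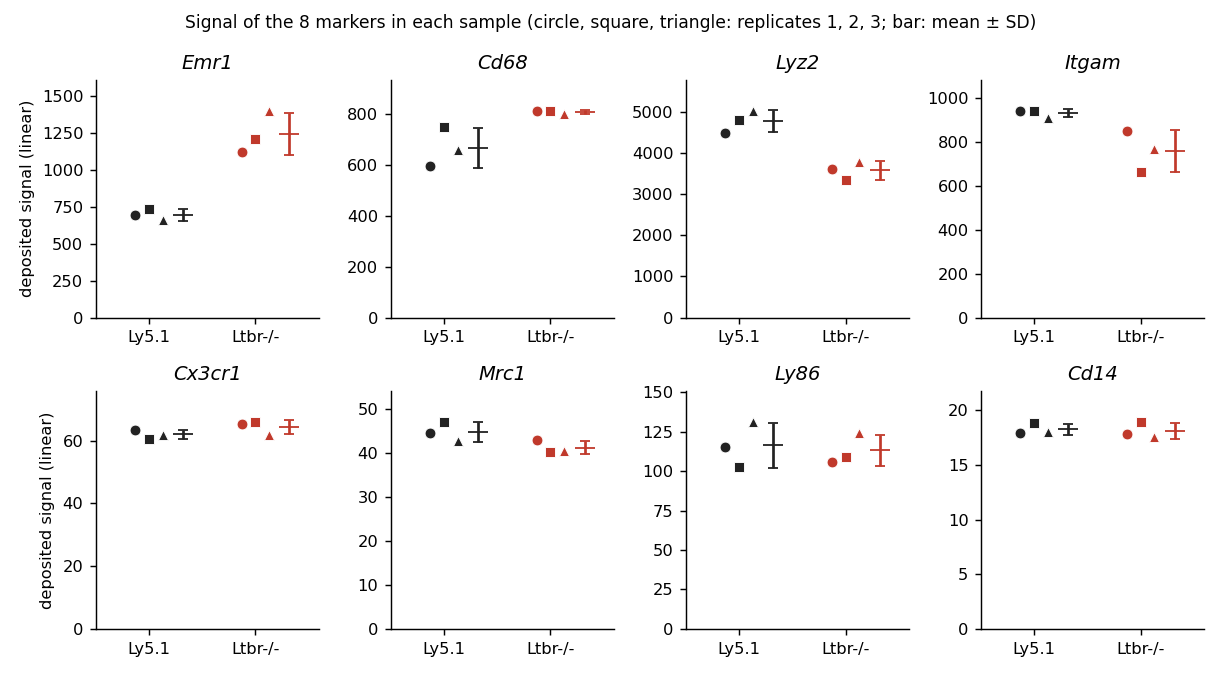
Deposited signal (linear axes from 0) of each of the 8 markers in the 3 Ly5.1 (black) and 3 Ltbr-/- (red) samples, with mean ± SD beside the points. *Emr1* and *Cd68* have all Ltbr-/- points above the Ly5.1 points, *Lyz2* and *Itgam* all below, and the other 4 overlap.

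The study selected genes at a false discovery rate below 0.05 with a change of 1.5-fold or more. Here these cutoffs were put on limma fits, with the Benjamini-Hochberg adjusted p as the rate. The authors worked in ArrayStar, so the calls below are not theirs. The number of differing genes that they reported was not compared with these calls. In the limma fits 1 of the 8 markers, *Emr1*, was called, and it was called higher. Over all tested names 2.78% were called, 2.72% as higher and 0.061% as lower in Ltbr-/- cells, that is, 356 and 8 genes, which became 261 and 28 after quantile normalization. At the same adjusted p with no fold threshold, *Emr1* and *Cd68* were higher and *Lyz2* and *Itgam* lower, against 10.6% of all tested names higher and 4.18% lower. All Ltbr-/- values were above all Ly5.1 values in 2 of the 8 markers and in 17.0% of the tested names, and below them in 2 of the 8 and in 13.5%. The median log2 difference was -0.03 over the 8 markers and -0.01 over all tested names. Because these values chose the markers, nothing is read from the counts.

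Per kilobase of the longest transcript, the levels followed the same order in both genotypes, *Lyz2*, *Cd68*, *Emr1*, *Itgam*, *Ly86*, *Cx3cr1*, *Cd14* and *Mrc1*. The Ly5.1 signal per kilobase was 3634 ± 209 for *Lyz2*, 541 ± 63.0 for *Cd68*, 215 ± 12.1 for *Emr1* and 198 ± 3.86 for *Itgam* (SD, n = 3). Neighbours in this order did not overlap in either genotype, but in Ly5.1 cells *Emr1* and *Itgam* were close. In Ltbr-/- cells *Emr1* was at 383 ± 43.7 and *Itgam* at 162 ± 20.2 per kilobase. The lower 4 markers lay at 43.4 (*Ly86*), 13.8 (*Cx3cr1*), 11.1 (*Cd14*) and 8.32 (*Mrc1*) per kilobase in Ly5.1 cells. The order was the same with the mean transcript length of each gene in place of the longest.

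**Figure D2:**
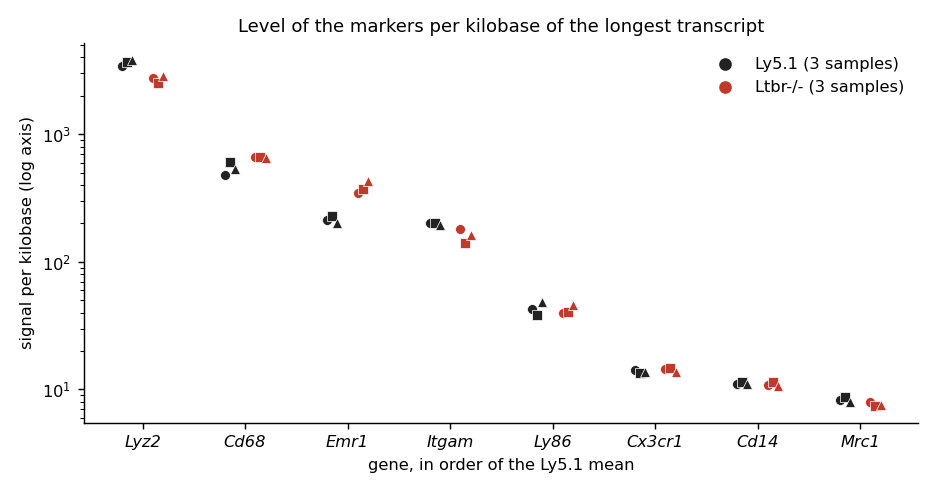
Signal per kilobase of the longest transcript (log axis) of the 8 markers in the 3 Ly5.1 (black) and 3 Ltbr-/- (red) samples, ordered by the Ly5.1 mean. *Emr1* and *Itgam* lie close together in Ly5.1 samples (215 and 198) and apart in Ltbr-/- samples (383 and 162).

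The balance of the markers within a sample followed from these differences. The *Emr1* signal divided by that of *Lyz2* was 0.131 to 0.154 in Ly5.1 and 0.309 to 0.368 in Ltbr-/- samples. Divided by *Itgam* it was 0.725 to 0.783 in Ly5.1 and 1.32 to 1.83 in Ltbr-/- samples. *Emr1* over *Cd68* was 0.984 to 1.16 in Ly5.1 and 1.38 to 1.75 in Ltbr-/- samples, so also this ratio did not overlap. The ratio of *Lyz2* to *Itgam* was 5.16 ± 0.380 in Ly5.1 and 4.76 ± 0.427 in Ltbr-/- samples (SD, n = 3), which overlapped.

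Over the 6 samples the log2 signal of *Emr1* had a Pearson r of 0.83 with *Cd68*, -0.90 with *Lyz2* and -0.81 with *Itgam*, and *Lyz2* had an r of 0.86 with *Itgam*. After subtracting the genotype means these were 0.22, 0.26, -0.14 and 0.46, so the first values rest mainly on the gap between the genotypes. The 5 tested genes most like *Emr1* by r were *Cd53*, a tetraspanin of leukocytes, *Rab44*, a Rab family GTPase, *Eif1*, a translation initiation factor, *Ecsit*, and *Rpl34*, a protein of the large ribosomal subunit, with r of 0.998 for *Cd53* and 0.994 for *Rpl34*. Their log2 differences were 0.75 for *Cd53*, 0.75 for *Rab44*, 0.37 for *Eif1*, 0.47 for *Ecsit* and 0.38 for *Rpl34*. An r over 0.95 with *Emr1* was reached by 421 tested genes, which share the same 6 samples.

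Among 15 partners and close relatives of the markers, 14 were tested and 1 was called, *Lamp1*, which encodes a lysosomal membrane glycoprotein of the same family as CD68. *Lamp1* rose from 4317 to 4852 in Ly5.1 to 6983 to 7298 in Ltbr-/- samples (log2 difference 0.64, SE 0.07, limma adjusted p = 4.95e-09), a call that was lost after quantile normalization, at a log2 difference of 0.45. *Lamp2*, the related lysosomal glycoprotein, was at 1333 ± 63.1 and 1425 ± 96.5 (SD, n = 3; log2 difference 0.10, limma adjusted p = 0.515). The list had a median log2 difference of -0.01.

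The relatives of *Emr1* did not pass the test as higher. *Emr4* had a log2 difference of -0.12 (limma adjusted p = 0.278), and *Cd97* (*Adgre5*), an adhesion receptor of leukocytes, one of -0.28 (limma adjusted p = 0.0497), with overlapping groups. *Itgb2*, the β2 chain that pairs with the *Itgam* product, was at 1976 to 2177 in Ly5.1 and 2233 to 2438 in Ltbr-/- samples (log2 difference 0.13, limma adjusted p = 0.299). The sign of *Itgb2* was thus opposite to that of *Itgam*, and the difference between the 2 chains was not tested. *Itgax*, the CD11c chain, had a log2 difference of 0.09 (limma adjusted p = 0.513).

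*Lyz1*, the copy whose sequence is shown above, was at 767, 844 and 807 in Ly5.1 and 642, 593 and 706 in Ltbr-/- samples. All Ltbr-/- values lay below the Ly5.1 values, as in *Lyz2*, with a log2 difference of -0.32 (SE 0.09, limma adjusted p = 0.0145) that did not reach 1.5-fold. The ratio of *Lyz2* to *Lyz1* was 5.94 ± 0.274 in Ly5.1 and 5.55 ± 0.148 in Ltbr-/- samples (SD, n = 3), and reads from their identical stretches may have been assigned to either.

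The receptors that work with CD14 and MD-1 did not pass the test. *Cd180*, the partner of MD-1, had a log2 difference of -0.01 (limma adjusted p = 0.955), *Tlr4* -0.14 (0.331), *Ly96* (MD-2) 0.01 (0.912) and *Tlr2* 0.01 (0.961). *Lbp*, which passes lipopolysaccharide to CD14, had -0.08 (limma adjusted p = 0.675). *Cx3cl1*, the ligand of CX3CR1, had -0.01 (limma adjusted p = 0.894), and *Ly75*, a relative of the mannose receptor, -0.24 (limma adjusted p = 0.0918). *Mrc2*, the other mannose receptor relative, was at 1 in all 6 samples.

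Of 40 further monocyte and macrophage genes 30 were tested, and 2 were called, both higher. *Lgals3*, galectin-3, was at 1315 ± 174 in Ly5.1 and 2049 ± 134 in Ltbr-/- samples (SD, n = 3; log2 difference 0.65, limma adjusted p = 8.93e-07). *Clec4d*, a C-type lectin receptor of myeloid cells, was at 215 ± 20.6 and 325 ± 24.3 (SD, n = 3; log2 difference 0.59, limma adjusted p = 1.27e-05). Both lie near the 1.5-fold threshold: the log2 difference of *Lgals3* was 0.54 without Ly5.1 replicate 2, and that of *Clec4d* 0.53 without Ltbr-/- replicate 1 or Ly5.1 replicate 3, which ended the calls. This list had a median log2 difference of -0.05, with 11 genes above and 19 below 0. Like the 8 markers, it held genes that differed in both directions.

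With no fold threshold 4 genes of this list were higher and 3 lower at a limma adjusted p under 0.05. *F13a1*, the coagulation factor XIII A chain of monocytes and megakaryocytes, had a log2 difference of 0.51 (limma adjusted p = 8.77e-06). *Csf2rb*, the shared β chain of the GM-CSF, IL-3 and IL-5 receptors, had one of 0.48 (limma adjusted p = 5.05e-05). *Cybb*, an NADPH oxidase subunit of phagocytes, *Fn1*, fibronectin, and *Clec7a*, dectin-1, were lower, with log2 differences of -0.33, -0.24 and -0.19 (limma adjusted p = 0.00961, 0.0419 and 0.036).

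For genes typical of mature tissue macrophages the signals are given without division by transcript length, so they do not compare 1 gene with another. *Marco*, *Timd4* and *Gpnmb* were at 1 in all 6 samples, *Mertk* was at 7.90 to 8.24, and *C1qa* at 16.6 to 17.6 in both genotypes together. *Slc40a1*, the iron exporter, was at 82.7 to 103, *Vcam1* at 128 to 187, *Cd163*, the haptoglobin-hemoglobin receptor, at 149 to 187 and *Axl* at 180.2 to 197, and none of these 4 passed the test. *Csf1r*, the M-CSF receptor of the lineage, was at 521 ± 56.1 in Ly5.1 and 432 ± 28.3 in Ltbr-/- samples (SD, n = 3; log2 difference -0.27, limma adjusted p = 0.0593). The summed signal of the 40 genes was 14210 to 14750 in Ly5.1 and 14980 to 15280 in Ltbr-/- samples. Genes of high signal weigh most in this sum, and of the tested genes 19 lay below and 11 above 0.

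Of the transcription factors of monocyte and macrophage fate 11 were listed with a value, 9 were tested, and 0 were called by limma. At an unadjusted limma p under 0.05, given without the share over all tested names, 2 were higher and 2 lower. The same numbers passed an adjusted p under 0.05 with no fold threshold. *Cebpb*, a C/EBP factor of emergency myelopoiesis, had a log2 difference of 0.50 (limma adjusted p = 0.000151) and *Runx1* one of 0.27 (0.0341). *Zeb2* had one of -0.29 (limma adjusted p = 0.036) and *Egr1* one of -0.25 (0.0229). The remaining tested regulators did not pass, among them *Nr4a1*, with a log2 difference of -0.13 (limma adjusted p = 0.37). *Irf8*, which directs monocyte and dendritic cell fate, was at 486 ± 16.9 and 455 ± 27.4 (SD, n = 3; limma adjusted p = 0.55).

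**Figure D3:**
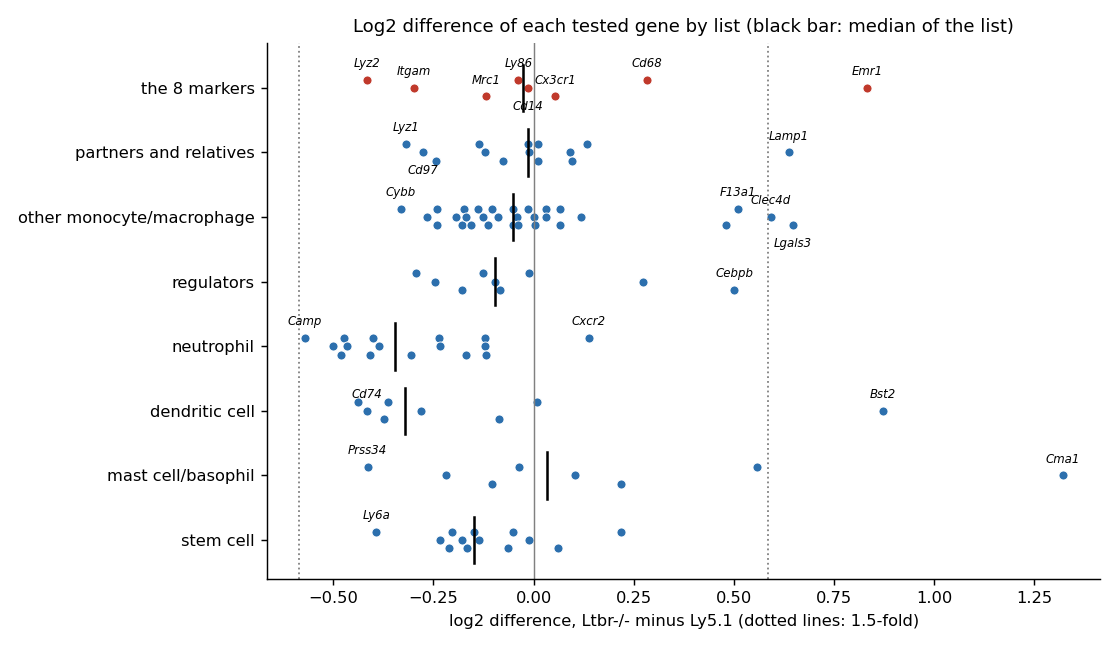
Log2 difference (Ltbr-/- minus Ly5.1) of each tested gene, 1 point per gene, for the 8 markers (red) and 7 lists of related genes or other cell types (blue), with the median of each list as a black bar and dotted lines at 1.5-fold. The markers spread from -0.42 (*Lyz2*) to 0.83 (*Emr1*), and the neutrophil list has its median at -0.35.

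Neutrophils share *Lyz2* and *Itgam* with monocytes. All 16 listed neutrophil genes were tested and 0 were called by limma. At an unadjusted limma p under 0.05, 12 were lower and 1 higher, which cannot be judged without the share over all tested names. The median log2 difference of the list was -0.35. With no fold threshold 11 were lower and 0 higher at an adjusted p under 0.05, against 4.18% and 10.6% of all tested names. The other 5 did not pass, among them *Cxcr2*, a chemokine receptor, with a log2 difference of 0.14 (limma adjusted p = 0.144). Like all the gene lists, this one was chosen with earlier results of these data known, so nothing is read from these counts. *S100a9*, a subunit of calprotectin, was at 13960 ± 843 in Ly5.1 and 10050 ± 110 in Ltbr-/- samples (SD, n = 3; log2 difference -0.47, limma adjusted p = 2.78e-07).

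*Mpo*, myeloperoxidase of primary granules, had a log2 difference of -0.39 (limma adjusted p = 2.97e-05). *S100a8*, the other calprotectin subunit, had one of -0.41 (limma adjusted p = 6.47e-05). The summed signal of the neutrophil list was 63780 to 68690 in Ly5.1 and 48820 to 49740 in Ltbr-/- samples, against 19810 to 20410 and 18580 to 19320 for the HSC list. *Ly6g*, part of the Gr1 epitope used in lineage depletion, was at 18.5 to 21.1. Its relative *Ly6c2*, from the monocyte and macrophage list, was far higher, at 748 to 886 (log2 difference -0.18, limma adjusted p = 0.185). The low *Ly6g* signal is thus no measure of the depletion as a whole. No listed neutrophil gene was at 1. The part of these neutrophil genes in the *Lyz2* and *Itgam* differences was not tested.

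**Figure D4:**
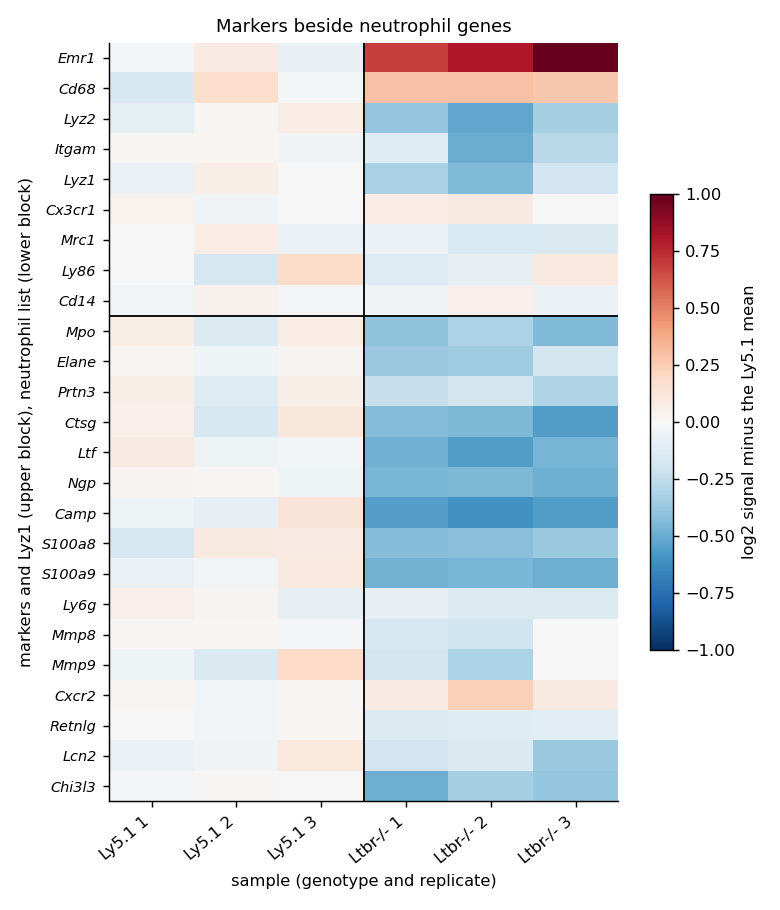
Log2 signal minus the Ly5.1 mean of the gene (color scale from -1 to 1) in the 6 samples, for the 8 markers with *Lyz1* above the line and the 16 neutrophil genes below it. *Lyz2*, *Itgam* and *Lyz1* are below the Ly5.1 mean in all 3 Ltbr-/- samples, as are most neutrophil genes, while *Emr1* and *Cd68* are above it.

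Genes of mast cells, basophils and dendritic cells were also listed. Of 8 tested mast cell and basophil genes 1 was called, *Cma1*, a mast cell chymase, with a log2 difference of 1.32 (limma adjusted p = 1.44e-15). The median log2 difference of the list was 0.03, with 4 genes above and 4 below 0. Its summed signal was 8231 to 9215 in Ly5.1 and 12350 to 12980 in Ltbr-/- samples. Of this sum *Cma1* alone made up 2032 to 2452 in Ly5.1 and 5262 to 5795 in Ltbr-/- samples. *Gata2*, also on the HSC list, is part of the sum too. *Cpa3*, a mast cell carboxypeptidase, had a log2 difference of 0.56 (limma adjusted p = 1.44e-05), *Prss34*, a basophil protease, -0.41 (0.0033), and *Tpsb2* was at 1 in all samples. Of 8 tested dendritic cell genes *Bst2*, an interferon-inducible gene also used as a plasmacytoid marker, was called (log2 difference 0.87, limma adjusted p = 7.53e-10). The class II genes *Cd74* and *H2-Aa* were lower, with log2 differences of -0.42 and -0.44 (limma adjusted p = 0.000667 and 0.000315). The median log2 difference of the dendritic list was -0.32. With no fold threshold 5 of its genes were lower and 1 higher at an adjusted p under 0.05. Its summed signal was 7246 to 8241 in Ly5.1 and 7883 to 8281 in Ltbr-/- samples. Of this sum *Bst2* alone made up 1660 to 2232 in Ly5.1 and 3401 to 3846 in Ltbr-/- samples. The part of either list in the *Emr1* and *Cd68* differences was not tested.

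The 8 genes lie on 8 different chromosomes. *Cx3cr1* is at chr9:120048683-120068296, *Mrc1* at chr2:14229414-14332023, *Ly86* at chr13:37345345-37419036 and *Cd14* at chr18:36725064-36726815 (GRCm38.p6). For *Cx3cr1*, 78 exon bases (1.73%) overlap Gm33858 on the other strand, in libraries made with a kit that keeps the strand. Apart from *Lyz2* and *Itgam*, no marker shared a window of 76 bases with another gene.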

How the data were processed

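RNA-seq of 3 Ltbr-/- and 3 Ly5.1 LT/ST-HSC samples was used. Libraries were stranded mRNA libraries read in single reads of 76 bases. The authors assembled and quantified the reads with SeqMan NGen and ArrayStar, and the submitters' processing notes name DESeq2, GRCm38 and mm10. The authors deposited for each gene a signal that was taken from its values to be 2 to the power of the regularized log. The annotation used is not given in the sources used here. The signal holds no counts, so depth is unknown and no interval or detection limit is given. The p-values measure only the spread between 3 samples a group, which may be partly technical. Counts at an unadjusted p under 0.05 are given without the share over all tested names, so they cannot be judged against it.

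The 8 markers and all gene lists were chosen with earlier results of these data known. For the 75 names listed more than once (0 of the 8), only the entry of highest mean entered. Names in the upper 50% by mean were fitted with limma 3.58.1 (lmFit, eBayes with trend) in R 4.3.3 on log2 signal with no pseudocount, and p-values were adjusted over all 13108. The model was tested on simulated data. Named were the 8 markers, all partners, *Ltbr* and the 5 genes most like *Emr1*. Of the other lists each called gene and up to 3 uncalled genes of highest mean were named. *Cebpb*, *Zeb2*, *Irf8*, *Cybb*, *Clec7a*, *Csf1r*, *Mertk*, *C1qa*, *Slc40a1*, *Vcam1*, *Cd163*, *Axl* and the genes at 1 were named after their values were seen. So were *Cd48*, *Ly6g*, *Ly6c2* and the labelled points *Camp*, *Cxcr2* and *Ly6a*. One listed transcription factor was not analysed here. Of 148 list genes 144 matched RefSeq by symbol and 4 by synonym. Promoters were examined for 6 of the 8 markers, all but *Emr1* and *Cd14*. Marker promoters on chromosome 18, where *Cd14* lies, were left out. Alternatives were other filters, normalizations, a pseudocount of 10, the replicate block, no trend, no fold threshold and leaving out each sample.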

Additional observations from a re-analysis of the deposited data

How the results depend on the processing

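Under median centring, quantile normalization and a pseudocount of 10 each of the 8 markers stayed within the replicate SD of its value, except *Lyz2*, at -0.55 after quantile normalization; the replicate block and summed repeated names cannot move these values. The median log2 difference of the 8 markers was -0.05 to 0.01 when 1 sample was left out. With no fold threshold 1936 genes passed in place of 364, and among the lists 3 partners in place of 1, 7 monocyte and macrophage genes in place of 2, 4 regulators in place of 0, 11 neutrophil genes in place of 0, 6 dendritic genes in place of 1, 4 mast cell and basophil genes in place of 1, and 3 HSC genes in place of 0. Quantile normalization called 0 partners, so *Lamp1* was no longer called, and 6 neutrophil genes, all lower; over all genes it called 261 higher and 28 lower in place of 356 and 8. In the upper 25% of names 1 monocyte and macrophage gene was called, of 12 tested, and 0 B cell genes, as none was tested. Leaving out 1 sample gave 342 to 407 calls in all, 1 to 2 monocyte and macrophage genes (1 without Ltbr-/- replicate 1, Ly5.1 replicate 2 or Ly5.1 replicate 3), 0 to 1 neutrophil genes (1 without Ly5.1 replicate 1 or 2), 1 to 2 mast cell and basophil genes (2 without Ltbr-/- or Ly5.1 replicate 3), and 0 to 1 B cell genes (0 without Ly5.1 replicate 3). The cause of these changes was not tested beyond the fewer genes or samples. The replicate block gave 364 calls and changed no count of a list. Such a block leaves the log2 differences unchanged, so it could act only through the adjusted p. Its calls were counted only with the fold threshold, under which median centring, no trend and no filter also gave 364. The unchanged count therefore cannot tell whether pairing matters. Same-numbered samples deviated with correlations of 0.03, -0.01 and 0.09, and not every sample correlated best with its own number. The labels do not state whether same-numbered samples came from the same chimeras. With 3 samples a group these correlations cannot decide it.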

Other observations

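Lymphoid and erythroid genes, which belong to no comparison above, were also listed. Of 8 B cell genes 2 were tested and *Cd79a*, a chain of the B cell receptor complex, was called higher in Ltbr-/- samples, at 191 ± 22.2 in Ly5.1 and 292 ± 16.4 in Ltbr-/- samples (SD, n = 3; log2 difference 0.62, limma adjusted p = 6.87e-06). Without Ly5.1 replicate 3 the log2 difference of *Cd79a* was 0.53, under 1.5-fold. *Cd79b*, the partner chain, was at 280.5 ± 11.5 and 319 ± 32.5 (SD, n = 3; limma adjusted p = 0.216). Of 8 T cell genes 2 were tested and 0 were called by limma, also with none at an unadjusted p under 0.05, for which no share over all tested names is given. Of 8 erythroid genes *Hba-a1*, an α-globin gene, was called, at 1083 ± 199 and 2129 ± 130 (SD, n = 3; log2 difference 0.99, limma adjusted p = 2.81e-10), and 62.0% of its windows of 76 bases also occur in *Hba-a2*. *Hbb-b1*, β-globin, was at 381 ± 10.1 and 393 ± 16.6 (SD, n = 3; limma adjusted p = 0.808).

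Of 13 HSC genes 0 were called by limma, and the median log2 difference was -0.15. At an unadjusted limma p under 0.05, 1 was higher and 5 lower, again without the share over all tested names. *Kit*, the receptor of stem cell factor, was at 5981 ± 127 in Ly5.1 and 5393 ± 192 in Ltbr-/- samples (SD, n = 3; log2 difference -0.15, limma adjusted p = 0.154). *Meis1*, a homeobox factor of HSCs, had a log2 difference of -0.23 (limma adjusted p = 0.038) and *Gata2* one of 0.22 (limma adjusted p = 0.0402), both without reaching 1.5-fold. *Ly6a*, the gene of sca1 by which the cells were sorted, had one of -0.39 (limma adjusted p = 0.0016).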
